A study of Mus musculus with 2 samples.

Results

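The genes described here are 7 subunits of the GABA-A receptor, chosen by gene symbol: Gabra4, Gabra5 and Gabrd, whose proteins are best known from extrasynaptic receptors, Gabra2 and Gabra3, best known from synaptic ones, and Gabrb1 and Gabrb2, whose proteins join either kind. They are 7 of the 19 annotated genes whose symbol begins with Gabr and 7 of 55536 annotated genes in all. The tissue was hippocampus from 2 males of the B6CASTF1/J hybrid (C57BL/6J crossed with CAST/EiJ), adults of 8 to 10 months, and total RNA of each animal gave 1 library. The mice carried no other allele and received no treatment that the labels give, so there is 1 group and no contrast between conditions. The labels name the tissue as a layer of hippocampus without saying which layer, and they give the animals different numbers under a single donor entry. The libraries started from 300 ng of RNA, were depleted of ribosomal RNA and kept strand. Replicate 1 held 23458117 expected counts and replicate 2 held 29584307.

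GABA-A receptors are chloride channels assembled from several subunits around a central pore, and GABA binds between alpha and beta subunits. Receptors at synapses, many of them with the alpha2 or alpha3 subunit, carry brief phasic inhibition, whereas receptors outside synapses with alpha5, or with alpha4 and delta, respond to ambient GABA and carry tonic inhibition. In the hippocampus alpha5 is known for the pyramidal cell dendrites, alpha4 and delta for the granule cells of the dentate gyrus, and alpha2 for synapses on cell bodies and the axon initial segment.

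The labelled tissue was checked against marker lists, given as TPM (a level corrected for transcript length and scaled to a common sum) summed over each list. The 4 genes of glutamatergic neurons summed to 2765 and 2777 TPM in replicates 1 and 2, the 6 interneuron genes to 477 and 491, the 8 dentate granule cell genes to 205 and 173, the 5 CA1 genes to 290 and 281 and the 6 CA3 genes to 122 and 113. Every one of these markers was at 1 TPM or more in both libraries. The lists for astrocytes summed to 1075 and 1003 TPM, for oligodendrocytes to 966 and 967, for neocortex to 77.6 and 76.8, for thalamus to 25.8 and 21.9 and for striatum to 14.3 and 14.6. Mbp alone gave 855 and 834 TPM of the oligodendrocyte sums. The other genes of that list were Mag at 82.77 and 94.05 TPM, Mog at 21.97 and 30.15 and Opalin at 5.85 and 8.44. None of these 10 lists had a gene called between the libraries by the test described further on, which called 0.806% of all tested genes. That test covered 4 of the 5 thalamus genes and 3 of the 5 striatum genes. By the same test 1 dentate granule cell gene and 1 oligodendrocyte gene had an unadjusted p under 0.05. The median log2 ratio of replicate 2 over replicate 1 ran from -0.22 for the dentate granule cell list to 0.46 for the striatum list. Of the 8 dentate granule cell genes 2 had a ratio above 0, and all 4 oligodendrocyte genes did, with a median of 0.38. The remaining list was that of the choroid plexus, the epithelium behind cerebrospinal fluid: its 9 genes summed to 17.9 TPM in replicate 1 and 1792 TPM in replicate 2, and 8 of the 9 were called higher in replicate 2. Its part in the levels of the members was not tested. In bulk tissue, fewer cells of a type and less RNA per cell cannot be told apart.

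The alpha subunits differ at 1 residue that sets the action of classical benzodiazepines: a histidine there allows binding and an arginine does not. The coding stretches of 39 bases around this codon are shown because they separate the members that the levels are compared over. They come from the GENCODE M21 transcripts on mm10, read 5′ to 3′ in the sense of the gene, all on the minus strand, with the codon in capitals.
Gabra4: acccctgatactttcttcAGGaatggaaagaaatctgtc
Gabra5: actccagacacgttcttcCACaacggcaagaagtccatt
Gabra2: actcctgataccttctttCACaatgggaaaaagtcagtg
Gabra3: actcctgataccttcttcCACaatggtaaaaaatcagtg
These lie at chr5:71641134-71641172 in exon 4 of Gabra4-201, at chr7:57488873-57488911 in exon 5 of Gabra5-201, at chr5:71014487-71014525 in exon 5 of Gabra2-203 and at chrX:72501150-72501188 in exon 5 of Gabra3-201. Gabra2, Gabra3 and Gabra5 have the histidine codon CAC, and Gabra4 has the arginine codon AGG. Counted from 1 at the 5′ end of the stretch, with the Gabra2 base first, Gabra4 differs in the codon by C19A, A20G and C21G. Over the whole stretch it differs from Gabra2 at 11 positions, against 10 for Gabra5 and 3 for Gabra3.

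All 7 genes share an exon plan, for which the other genes of the family were not examined. The protein-coding transcript described for each of the 7 has 9 coding exons. In each of these transcripts coding exons of 68, 221 and 83 bases follow one another. The next coding exon has 144 bases in the 4 alpha genes and 138 bases in Gabrb1, Gabrb2 and Gabrd. Coding sequences were most alike between Gabra2 and Gabra3, at 71.9% identical aligned bases, and between Gabrb1 and Gabrb2, at 71.8%. They were least alike between Gabrd and Gabra2, at 52.4%. The deposited tables give the spread of each gene count that comes from dividing reads between genes, and it was 0 reads for all 7 genes in both libraries. The same value stood for 20548 of 24821 genes with counts in replicate 1 and for 20677 of 24992 in replicate 2.

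Gabra5, the alpha5 gene at chr7:57407672-57510059 on the minus strand, had 83.0 TPM in replicate 1 and 85.9 TPM in replicate 2, from 2948 and 4098 reads, for a mean of 84.5 ± 2.00 TPM (SD, n = 2). The mean was above those of the other 6 members. The deposited bounds, which were made within each library and carry no spread between animals, were 76.2 to 82.3 and 80.3 to 85.6 TPM. Gabra5 was the member whose TPM lay outside its own bounds, just above them in both libraries, while its posterior mean TPM of 79.3 and 82.9 lay inside.

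Gabra4, the alpha4 gene at chr5:71569749-71658308 on the minus strand, had 36.4 TPM in replicate 1 and 44.9 TPM in replicate 2, from 1782 and 2522 reads, for 40.6 ± 6.0 TPM (SD, n = 2). Its SD was the widest of the 7, and the bounds of 32.6 to 39.6 and 39.9 to 47.3 TPM did not meet. Gabrd, the delta gene at chr4:155384980-155398112 on the minus strand, was the lowest member at 11.3 and 10.6 TPM, a mean of 11.0 ± 0.460 TPM (SD, n = 2), from 307 and 383 reads. Although alpha4 and delta are known as partners in one receptor, Gabra4 RNA exceeded Gabrd RNA 3.22-fold in replicate 1 and 4.22-fold in replicate 2 in TPM. In transcripts annotated as protein-coding the excess was 2.83-fold and 3.53-fold. The replicate 2 value includes the short form Gabra4-203, described with the transcripts, at 6.15 TPM. The full form Gabra4-201 alone had 27.6 and 27.9 TPM, against 9.74 and 9.67 TPM for Gabrd-201. Beside this, the dentate granule cell markers summed to 205 and 173 TPM, and their part in the levels of Gabra4 and Gabrd was not tested. Among these markers, the bounds of Prox1, Plk5, Lct and Glis3 did not meet and were lower in replicate 2. That was so for 20.6% of all genes with at least 1 TPM. No marker of the list lay apart and higher in replicate 2.

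Of the synaptic pair, Gabra2 at chr5:70957597-71095849 on the minus strand had 72.1 and 64.4 TPM, a mean of 68.2 ± 5.45 TPM (SD, n = 2), from 4150 and 5096 reads. Gabra3 at chrX:72432681-72656848, also on the minus strand, had 23.2 and 24.3 TPM, a mean of 23.8 ± 0.742 TPM (SD, n = 2), from 1130 and 1646 reads. Gabra2 thus stood 3.10-fold and 2.65-fold above Gabra3 in TPM over all transcripts, but 1.27-fold and 1.07-fold above it in transcripts annotated as protein-coding, at 29.0 and 26.0 TPM for Gabra2 against 22.8 and 24.3 TPM for Gabra3.

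The beta genes code for proteins that complete the GABA site. Gabrb2 at chr11:42419757-42629028 on the plus strand had 78.5 and 74.8 TPM, a mean of 76.6 ± 2.61 TPM (SD, n = 2), from 4086 and 5461 reads. Gabrb1 at chr5:71658113-72149037 on the plus strand had 66.8 and 64.2 TPM, a mean of 65.5 ± 1.88 TPM (SD, n = 2), from 7193 and 8600 reads. A short form with an incomplete end, described with the transcripts, made up 48.7% of its TPM on average, and without it the mean was 33.6 TPM, below Gabra4. Gabrb1 had more reads than any other member and a lower TPM than 3 of them. Its main transcript has a 3′ untranslated region of 12231 bases, against 424 to 4208 bases in the main coding transcripts of the other members.

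From high to low, the order of mean TPM was Gabra5, Gabrb2, Gabra2, Gabrb1, Gabra4, Gabra3 and Gabrd. Among the 21 pairs of members, 19 had bounds that did not meet in either library, always in the same order. Of the 6 neighbouring steps, 4 were separated in this way. Gabra5 and Gabrb2 overlapped in replicate 1, and Gabra2 and Gabrb1 overlapped in both libraries. The second transcript table, which the submitters made from the reads with a different method, gave the same order of means, at 72.6, 69.3, 64.8, 47.4, 37.7, 23.6 and 9.26 TPM. It kept 20 of the 21 pairs in the same order in both libraries, and the exception was Gabra5 and Gabrb2. The middle of the order depended on which transcripts were counted. In protein-coding transcripts alone Gabra2 had a mean of 27.5 TPM, below Gabrb1 at 65.5 and Gabra4 at 30.9 TPM. With transcripts of incomplete ends left out, Gabrb1 had 33.6 TPM, below Gabra4 at 40.6 TPM.

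**Figure D1:**
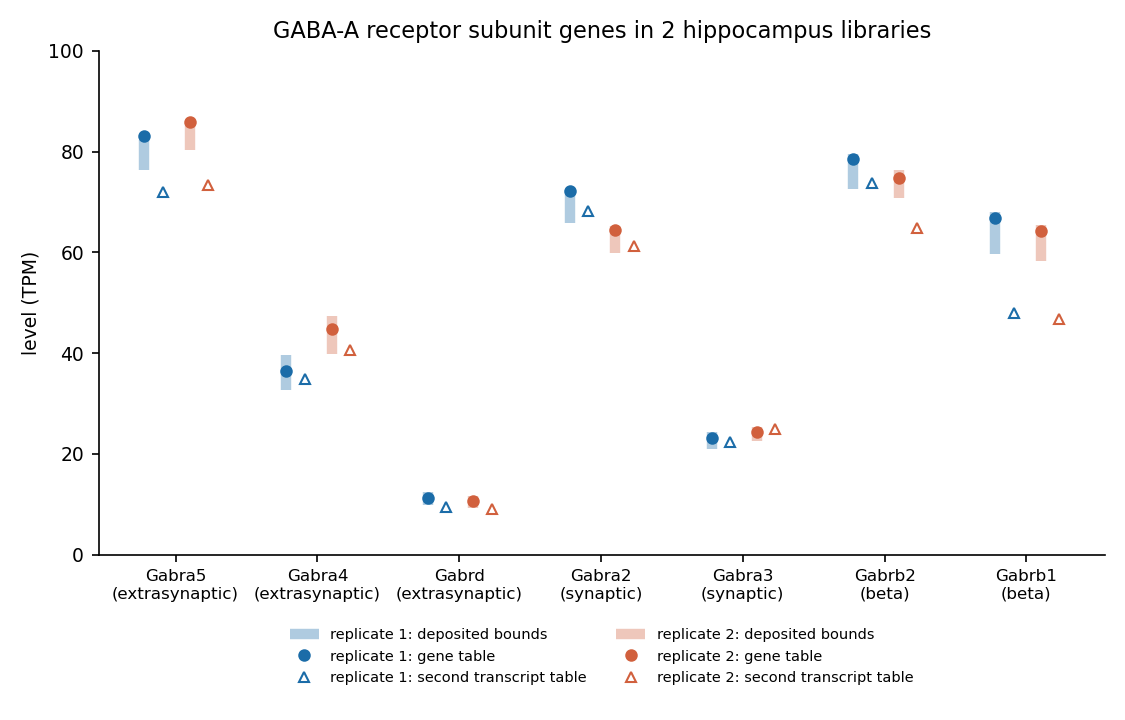
Level in TPM of each subunit gene in each library, with the deposited bounds as bars, the gene table as filled points and the second transcript table as open triangles. Gabra5 reaches 85.9 TPM, Gabrd stays near 11.0 TPM, and the largest gap between the tables is at Gabrb1, with 65.5 TPM in the gene table and 47.4 TPM in the second table.

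The extrasynaptic members Gabra4, Gabra5 and Gabrd summed to 131 TPM in replicate 1 and 141 TPM in replicate 2, against 95.3 and 88.7 TPM for the synaptic members Gabra2 and Gabra3. The extrasynaptic share of the TPM of these 5 genes was therefore 57.8% and 61.5%, a mean of 59.6% ± 2.57 (SD, n = 2). In both libraries the extrasynaptic sum was the higher, with 1.37-fold and 1.59-fold the synaptic sum. Most of it came from Gabra5, which exceeded Gabra4 2.28-fold and 1.91-fold. These shares cover the members alone, and other alpha genes of the family are in neither sum. The share was 41.8% where Gabra4 was counted with the synaptic members, since the alpha4 subunit is also found at synapses. Gabra5 was not moved between the sets, so how far the share depends on its placement was not tested.

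Sorted by the benzodiazepine-site codon, the arginine gene Gabra4 made up 16.9% of the summed TPM of the 4 alpha members in replicate 1 and 20.4% in replicate 2, a mean of 18.7% ± 2.48 (SD, n = 2). The histidine genes Gabra2, Gabra3 and Gabra5 summed to 178 and 175 TPM, against 36.4 and 44.9 TPM for Gabra4. These sums take all transcripts of each gene. They include Gabra2-204, described with the transcripts, at 28.7 and 27.6 TPM, whose stop codon comes before the histidine codon. They also include the short form Gabra4-203, at 6.15 TPM in replicate 2 alone.

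Within the whole family of 19 genes, the 7 members made up 45.7% of the TPM in replicate 1 and 44.3% in replicate 2. Of the other 12 genes, 3 were above every member in both libraries and 9 were below every member. Gabrg1, which codes for a gamma subunit, had 8.07 and 8.02 TPM, and Gabrg3, which codes for another, had 7.59 and 6.02 TPM. Both lay under Gabrd in each library.

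The annotation lists 27 transcripts for the 7 genes, and 13 of them made up at least 10% of their gene's TPM in at least 1 library. For 4 genes, Gabra3, Gabra4, Gabrb2 and Gabrd, the same transcript led in both libraries and in both transcript tables. Gabra3-201 made up 95.0% and 100% of Gabra3 TPM in replicates 1 and 2, Gabrb2-201 made up 90.8% and 97.4% of Gabrb2, and Gabrd-201 made up 86.3% and 90.9% of Gabrd. The rest of Gabrd was Gabrd-203, a processed transcript with no annotated coding sequence, at 13.7% and 9.08%. In the second table Gabra3-201 led with less, at a mean of 72.9%.

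Gabra2 was divided between a full coding form and a form annotated for nonsense-mediated decay, the pathway that degrades RNA with an early stop codon. Gabra2-203, with 5852 bases and the only one of the 6 annotated forms typed as protein-coding, made up 40.3% of Gabra2 TPM in replicate 1 and 40.4% in replicate 2. Gabra2-204, with 3867 bases, made up 39.8% and 42.8%. In TPM these were 29.0 and 26.0 for Gabra2-203 and 28.7 and 27.6 for Gabra2-204, and their deposited bounds overlapped in both libraries. Transcripts of Gabra2 not typed as protein-coding, decay forms included, made up 59.7% ± 0.113 of its TPM (SD, n = 2). For any other member such transcripts made up at most 24.1% in either library. This typing counts the truncated form Gabrb1-202, with an incomplete end, as protein-coding. In the second table the Gabra2 transcripts not typed as protein-coding made up 70.2% and 70.1%, and Gabra2-204 led in both libraries. By descent each animal carries a C57BL/6J and a CAST/EiJ copy of Gabra2, and the forms were not divided between these alleles. Whether the shares hold in other strains was not tested.

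The junction that separates the forms lies at the start of exon 5 of Gabra2-203, at chr5:71014416-71014636 on the minus strand. It is printed because the early stop follows from it. The first line shows the full form, with the 61 bases that Gabra2-204 leaves out in capitals, and the second shows Gabra2-204 over the same place, with its stop codon in capitals, both from the GENCODE M21 transcripts on mm10.
Gabra2-203: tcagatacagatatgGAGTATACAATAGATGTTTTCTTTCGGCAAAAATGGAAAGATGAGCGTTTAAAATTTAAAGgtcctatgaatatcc
Gabra2-204: tcagatacagatatggtcctaTGA
The 61 bases, at chr5:71014576-71014636, are not a multiple of the codon length, and the stop TGA ends 9 bases into the shortened exon. The open reading frame then has 87 amino acids, against 451 in the full form. The histidine codon shown above lies beyond that stop. Gabra2-204 is also annotated with a 3′ end 1884 bases short of that of Gabra2-203. Of the 3837 stretches of 31 bases in Gabra2-204, 28 occur in no other Gabra2 transcript, against 1948 of 5822 in Gabra2-203, so few read positions are particular to the decay form.

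Gabrb1 was split between a long and a truncated coding form. Gabrb1-201, with 13737 bases, made up 53.6% of Gabrb1 TPM in replicate 1 and 49.1% in replicate 2, and Gabrb1-202 made up 46.4% and 51.0%. Gabrb1-202 has 799 bases and is tagged in the annotation as having an incomplete 3′ end. Its large share of TPM came from 306 and 435 of the 7193 and 8600 Gabrb1 reads, which is 4.25% and 5.06% of them, divided by a short length. Without Gabrb1-202 the level of Gabrb1 was 33.6 ± 3.06 TPM (SD, n = 2), in place of 65.5 ± 1.88 TPM. That value lies below Gabra4 and above Gabra3.

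**Figure D2:**
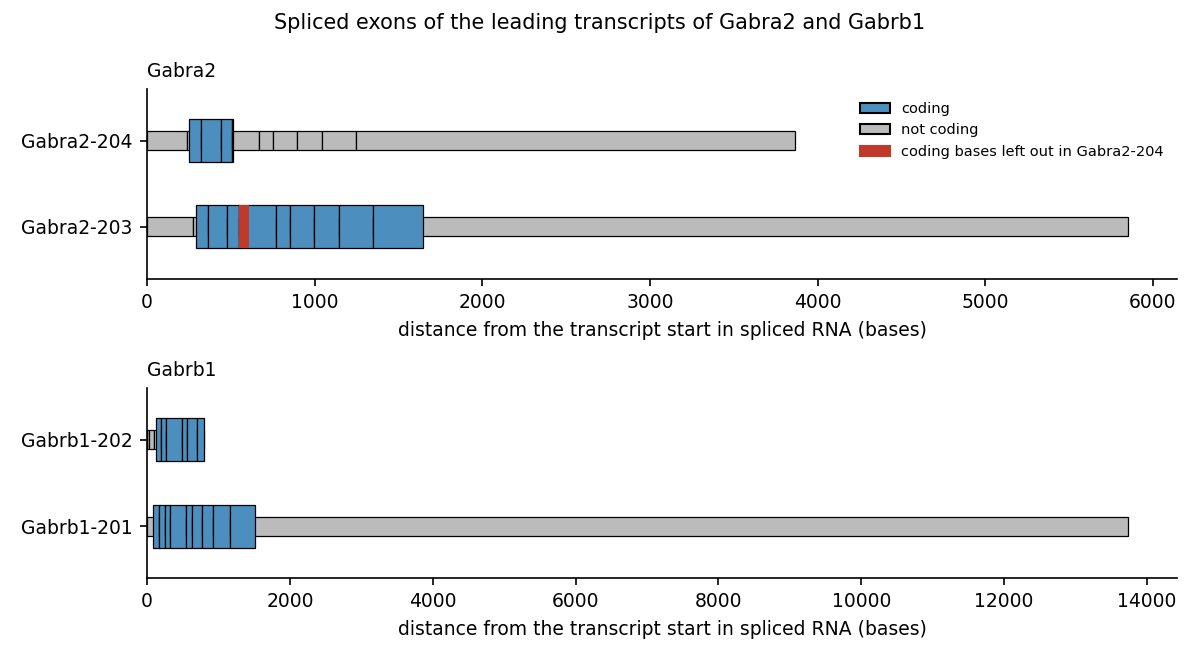
Spliced exons of the leading transcripts of Gabra2 and Gabrb1, drawn to scale from the transcript start in bases, with coding parts tall and other parts low. The reading frame of Gabra2-204 ends soon after the 61 bases marked in Gabra2-203, and Gabrb1-202 is 799 bases long beside the 13737 bases of Gabrb1-201.

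Gabra5 was shared by forms with the same coding sequence and different 5′ leader exons. Their last exons also differ in length, with 1238 bases in Gabra5-201 and 1191 bases in Gabra5-202. Gabra5-201 made up 55.4% and 50.9% of Gabra5 TPM in the first table and Gabra5-202 made up 38.1% and 41.1%. In the second table the order was turned round in both libraries, with means of 23.4% for Gabra5-201 and 63.9% for Gabra5-202. Which form was the more common therefore differed with the method, while the coding sequence did not.

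Gabra4-201, the full alpha4 form, made up 75.9% of Gabra4 TPM in replicate 1 and 62.1% in replicate 2. The decay form Gabra4-202 made up 16.7% and 20.3%. Gabra4-203, a coding form of 440 bases, had no reads in replicate 1 and 39.8 expected reads in replicate 2, where it took 13.7% of the TPM. Without it Gabra4 had 36.4 and 38.7 TPM, in place of 36.4 and 44.9 TPM. In Gabra4-201 alone the level was 27.6 and 27.9 TPM.

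**Figure D3:**
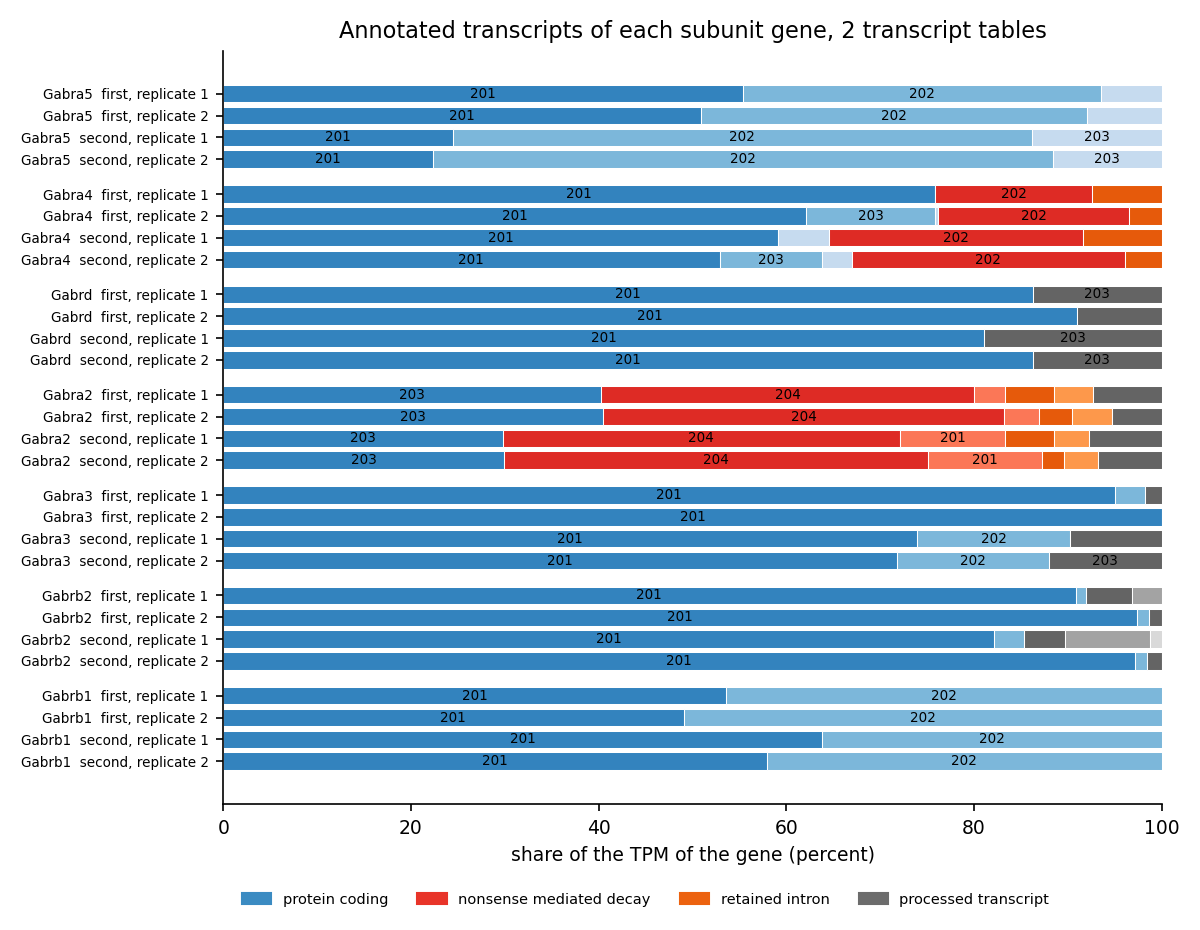
Share of each gene's TPM by annotated transcript, in percent, for both libraries in the first and the second transcript table, coloured by annotated type and numbered where the share reaches 10%. Red decay forms take a large part of Gabra2, and the leading form of Gabra5 differs between the tables.

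Restricted to transcripts annotated as protein-coding, the extrasynaptic share was 71.0% ± 1.53 (SD, n = 2), in place of 59.6% ± 2.57. Under that restriction the extrasynaptic members summed to 120 and 130 TPM and the synaptic members to 51.9 and 50.3 TPM. The synaptic sum was lower mainly through Gabra2, for which Gabra2-203 alone remained.

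Gabra2, Gabra4 and Gabrb1 lie in one cluster on chromosome 5, where 473899 bases separate Gabra2 from Gabra4. Gabra4 and Gabrb1 face away from each other, and their annotated 5′ ends overlap by 196 bases at chr5:71658113-71658308. The overlap comes from Gabrb1-202, which begins 41819 bases before Gabrb1-201, and 46 of its bases are exonic in both Gabrb1-202 and Gabra4-201. The libraries kept strand per the labels' kit, and no count here was checked for strand. The stretch upstream of Gabra4 is shown because Gabrb1-202 is transcribed across it in the other direction. It is 195 bases from the RefSeq promoter window on GRCm38.p6, at chr5:71658364-71658558 on the minus strand, 63.6% G and C, and lies in an intron of Gabrb1-202. Capitals mark the GC box GGGCGG where it reads on the opposite strand.
Gabra4 upstream: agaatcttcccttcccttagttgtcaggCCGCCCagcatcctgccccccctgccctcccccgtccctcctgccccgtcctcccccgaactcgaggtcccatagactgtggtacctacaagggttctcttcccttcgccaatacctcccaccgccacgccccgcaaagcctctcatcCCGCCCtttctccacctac
RefSeq windows from 250 bases before to 50 bases after a start were found for 6 of the 7 members, 10 windows in all. GGGCGG, searched on both strands, was in 3 of the 10 windows, those of Gabra2 and Gabra4 and 1 of Gabrb2, against 35.7% of 32851 windows of the same length. The TATA box TATAAA was in 3 of the 10 as well, against 13.6% of all windows. A match is a description of these letters and shows no binding.

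With 1 group of 2 animals, the one comparison left was between the libraries. It asked with edgeR whether a gene's expected counts differed by more than those of genes of like abundance, with a Benjamini-Hochberg adjusted p under 0.05 as the threshold. None of the 7 members was called, against 130 of 16123 tested genes, which is 0.806%, and none had an unadjusted p under 0.05. The count rests on the animals available, and it does not show that the members had equal levels. In TMM-scaled CPM (counts corrected for the size of each library), the log2 ratio of replicate 2 over replicate 1 was 0.16 for Gabra5, 0.19 for Gabra4 and 0.01 for Gabrd, against -0.02 for Gabra2 and 0.23 for Gabra3. For the beta genes it was 0.10 for Gabrb2 and -0.06 for Gabrb1. Unadjusted p ran from 0.285 for Gabra3 to 0.988 for Gabrd, and the adjusted p was 0.9999 for each. The median of the 7 log2 ratios was 0.10, beside a median of -0.001 over all tested genes. Scaled by the spike-in RNAs, which moved the median of all genes to -0.23, all 7 ratios were below 0, and none was called.

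**Figure D4:**
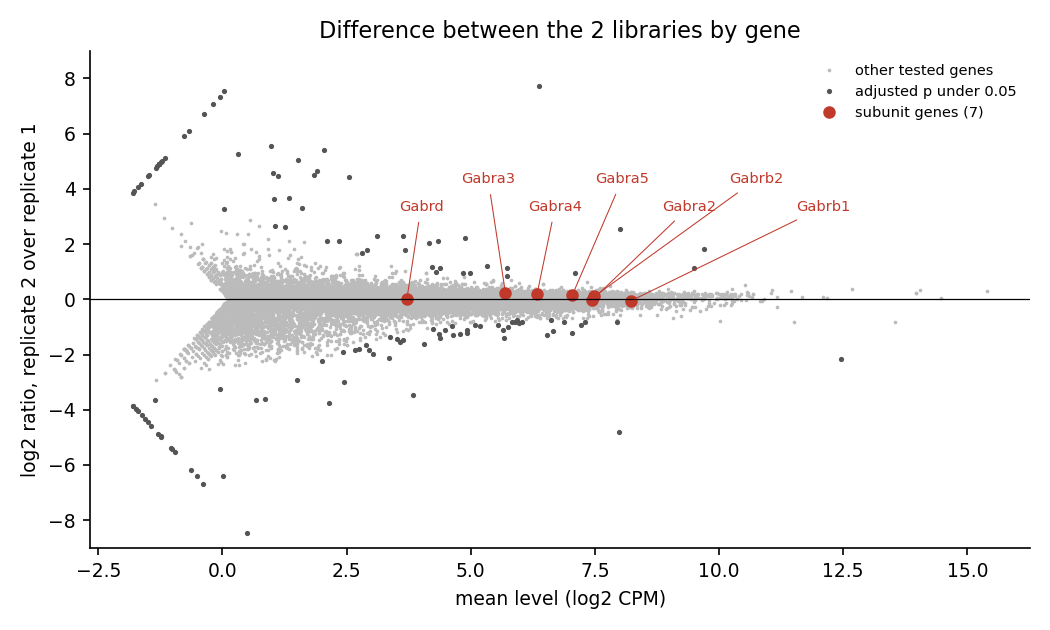
Log2 ratio of replicate 2 over replicate 1 against mean level in log2 CPM for the 16123 tested genes. The 7 subunit genes lie between -0.06 and 0.23, inside the cloud of genes that were not called.

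The deposited TPM bounds separated the libraries far more often, for 4149 of 16985 genes with at least 1 TPM, which is 24.4%. Of the members 2 of 7 were apart, which is near that share. Gabra4 was higher in replicate 2, as 3.82% of genes were, and Gabra2 was lower in replicate 2, as 20.6% were. For Gabra4, the log2 ratio of counts was 0.19 while its effective length, the average length by which reads are divided, was 2956 bases in replicate 2 and 3475 bases in replicate 1. The short form Gabra4-203 was counted in replicate 2 alone.

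Genes that anchor, assemble or traffic GABA-A receptors were given as a list of 20. All 20 were at 1 TPM or more in both libraries, with a median of 74.3 TPM. Nsf, a vesicle fusion ATPase that also aids surface delivery of receptors, was the highest at 581 ± 3.25 TPM, and Fam196a, which codes for an inhibitory synapse protein also called Insyn2a, the lowest at 5.70 ± 0.728 TPM (SD, n = 2). Gephyrin, the scaffold under inhibitory synapses, is coded by Gphn, which had 32.9 and 30.3 TPM. Rdx, which codes for radixin, known to anchor alpha5 outside synapses, had 28.1 and 31.4 TPM.

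None of the 20 was called between the libraries by edgeR, and none had an unadjusted p under 0.05. Their log2 ratios ran from -0.36 for Plcl1 to 0.27 for Zdhhc3, with a median of 0.05. By the TPM bounds 8 of the 20 were apart, 1 higher in replicate 2 (Maged1) and 7 lower, beside the 24.4% of all genes apart, 3.82% higher and 20.6% lower. No test was made of the list against that background. Shisa7, an auxiliary receptor subunit, was among the 7, at 58.4 TPM in replicate 2 and 88.1 TPM in replicate 1.

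**Figure D5:**
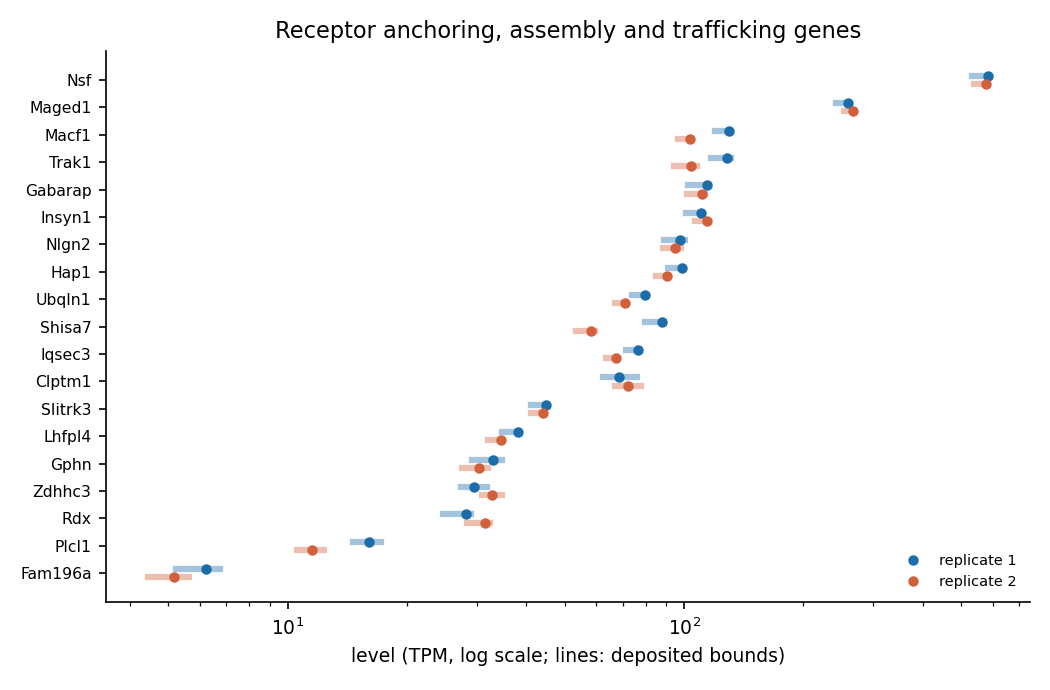
Level in TPM, on a log axis, of 19 of the 20 anchoring, assembly and trafficking genes in each library, with lines for the deposited bounds. Levels span 5.70 TPM for Fam196a to 581 TPM for Nsf, and the points of Shisa7 lie apart.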

How the data were processed

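Each library came with 1 gene table and 2 transcript tables that the authors deposited, made on mm10 and GENCODE M21 per the readme files beside them. The first 2 tables have the column names of RSEM and the third those of kallisto. No source used here gives the programs or versions. The deposited expected counts and the estimated counts of the second transcript table are reads divided among features, not scaled between libraries. The deposited TPM is scaled to a common sum, and the deposited percent says how much of the TPM of its gene a transcript holds. The deposited signal bounds of TPM have no stated level, were made within each library and carry no spread between animals. The limit for a count of 0 covers counting error only, because reads lack molecular identifiers and may repeat a molecule. The deposited spread of gene counts is the posterior SD column.

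Here, means and SDs were taken over the 2 animals, and second-table values were summed per gene. Whether the animals came from separate litters is not stated, so p-values measure only the spread between these samples. edgeR 4.0.16 in R 4.3.3 used expected counts rounded to whole numbers, CPM of 1 or more in at least 1 library, TMM scaling, an intercept-only design, trended dispersion and a prior count of 2 for ratios, and each residual deviance was referred to a chi-square distribution (1 degree of freedom). The step was tested on simulated data drawn at the dispersion that the step itself had estimated. That run therefore does not show how often false calls arise between real animals. An exact permutation test cannot reach the threshold here. Scaling, filter, dispersion, quantifier, transcript set and replicate were varied. The rule for named genes covered all 7 members, transcripts of 10% or more, and the highest and lowest gene of each list. Other genes were named after their values were seen. Members and lists were chosen with earlier results of these data known. A comparison of protein sequences was planned, and coding sequences (Biopython 1.88) were aligned in its place. Some genes of the family are not reported here by name.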

Additional observations from a re-analysis of the deposited data

How the results depend on the processing

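The extrasynaptic share of 59.6% was 71.0% with protein-coding transcripts alone and 41.8% with Gabra4 counted as synaptic, and it lay between 57.5% and 59.6% with the second table, posterior mean TPM, transcripts with incomplete ends left out or Gabrd left out. Leaving out a replicate gave 57.8% to 61.5%. The last 2 of those 4 choices, and levels from coding transcripts or without incomplete ends, were made after the data were seen. Leaving out a replicate gave 19 to 20 separated pairs, and 19 of 21 pairs kept their order with coding transcripts alone and 20 without incomplete ends. The leading transcript differed for Gabra5 with the second table, for Gabrb1 without replicate 1 and for Gabra2 without replicate 2, so 4 of 7 held throughout. The second table gave lower levels for all 7 members, 0.723 to 0.992 times the deposited TPM. The 130 genes called became 341 with a common dispersion, 94 with spike-in scaling, 119 with the second table, 123 with no filter, 130 with DESeq2 size factors and 135 with total count scaling. No member was called under any of these. Of the uncalled member ratios, 9 changed sign: with spike-in scaling Gabra3 (-0.00177), Gabra4 (-0.0433), Gabra5 (-0.0692), Gabrb2 (-0.126) and Gabrd (-0.224), with total count scaling Gabrd (-0.0151), with no filter Gabra2 (0.0175), and with the second table Gabra2 (0.0423) and Gabrb1 (0.0035). Spike-in and total count scaling move all genes alike, with medians over all genes of -0.23 and -0.02, so those signs say nothing of the members. With no filter the ratios of all 7 members rose by a like amount, Gabra2 from -0.0176 to 0.0175 and Gabra3 from 0.228 to 0.263. The sign of Gabra2 there is therefore not particular to that gene. Apart from choices of what is counted, the cause was not tested. Depth limits Gabrd most, with 307 and 383 reads. No paired analysis was possible because there is 1 group.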

Other observations

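Of the 12 family genes outside the 7, 7 were under 1 TPM in both libraries, with at most 33 reads. Gabre, which codes for the epsilon subunit, had 5 reads in replicate 1 and 16 in replicate 2, at 0.08 and 0.49 TPM. Gabrq, which codes for theta, had 18 and 33 reads, at 0.49 and 0.47 TPM. The rho subunit genes, first described in retina, were also low: Gabrr2 had 17 and 4 reads, at 0.70 and 0.16 TPM, and Gabrr3 had 5 reads in each library. Gabrr1 had no read in replicate 1 and 1 read in replicate 2. Gabrp, which codes for the pi subunit, had no reads in either, and a count of 0 allows up to 3 reads per library. These genes were named after their values were seen.

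Gabra3 holds the small RNA genes Mir105 and Mir767 on its own strand, over 80 and 107 bases, and both were at 0 reads in both libraries. Genes this short offer few places for a read, so these counts do not show that they were silent. Gm38562, an antisense gene over 19557 bases of the Gabrb1 locus, had 23 and 10 reads, against 7193 and 8600 for Gabrb1.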
